A study of Xenopus laevis with 6 samples.

Results

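The Hox cluster genes of Xenopus laevis were described here in whole embryos at stage 35. They were taken by name, as every gene of the count table whose symbol is hoxa, hoxb, hoxc or hoxd with a paralog number and an L or S suffix, which gave 56 members of 42638 genes. Pools of 10 embryos were raised in 0.75X MMR (3 samples), the more concentrated form of Marc's modified Ringer's solution, to which they had been moved after stage 9, or kept in 0.1X MMR (3 samples), the dilute medium usual for these embryos. All pools grew at 14 °C for 7 days with no mutation, transgene or other agent named in the labels, and the study asked whether the saltier medium, which Xenobots are kept in, changes what the embryo transcribes. Ribosomal RNA was depleted and the remaining RNA was sequenced, so each value is an average over all tissues of 10 embryos, and fewer cells that express a gene cannot be told apart from less RNA per cell.

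Hox genes encode homeodomain transcription factors that give cells their position along the head-to-tail axis. They lie in clusters in which the order on the chromosome broadly follows the order of their anterior expression limits. Genes with low paralog numbers reach further towards the head than those with high numbers, and paralog group 13 is confined to the tail. In the tailbud embryo Hox genes pattern the hindbrain, spinal cord, somites, neural crest and lateral plate, and their proteins bind DNA together with Pbx and Meis cofactors. Xenopus laevis is an allotetraploid, so most genes exist as a homeolog on a long (L) and one on a short (S) chromosome.

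The 56 members comprised 27 L and 29 S copies, which formed 23 L and S pairs and left 10 copies without a partner under the same symbol. They lay in 8 clusters on 6 chromosomes of the assembly Xenopus_laevis_v10.1. Cluster a stood at chr6L:43371136-43476273 and chr6S:34603676-34708121, and cluster b at chr9_10L:3472089-3577306 and chr9_10S:3159455-3249592. Cluster c stood at chr2L:154043173-154349875 and chr2S:137590343-137894234, and cluster d at chr9_10L:78458678-78574316 and chr9_10S:68818412-68927920. The members were ordered by paralog number along the chromosome in all 8 clusters. One symbol went against its place, since hoxa11.S lay on chromosome 6L, between hoxa9.L and hoxa13.L of the L cluster, and it is called here by its symbol. Cluster c was the longest, at 306.7 kb on 2L and 303.9 kb on 2S, and the other clusters measured between 90.1 kb and 115.6 kb.

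A further 17 genes inside these clusters were annotated as Hox genes in the product names deposited by the authors but bore other symbols. They included both Hox-A4 and both Hox-C4 homeologs, the Hox-B3a genes of both subgenomes and xhoxc8. They were followed beside the members because they add to the paralog groups. RSEM, which estimated the counts, splits a read that matches several genes among them, so such a gene has a fraction of a read while the genes that share the read add up to a whole number. Of the 23 Hox pairs 20 had fractional counts, and in 19 of these the L and S copies added up to whole counts in all 6 samples, within 0.015, against 4858 of 5384 pairs with fractions over the whole table. Of the 10 members without a partner 8 were completed to whole counts by exactly 1 other gene of the table. In 7 cases this gene was Hox-annotated, as for hoxa10.S with LOC108718901 (Hox-A10) and hoxc8.S with xhoxc8, and for hoxb4.S it was LOC494794, an uncharacterized gene in the b cluster of chromosome 9_10L. The hoxa11.S counts were completed by the Hox-A11 gene of chromosome 6S, LOC108719932. The value of a single copy therefore depends on how RSEM shared reads between near-identical copies, whereas in the 19 pairs with whole sums the sum over both copies does not. The hoxa7 sum was not whole.

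The 6 samples held between 5024957 and 7045215 counts. Hox members took between 0.0471% and 0.0541% of them, which corresponded to a summed level of 468.6, 500.1 and 490.7 CPM (counts scaled to the size of the library, with TMM factors) in 0.75X MMR, against 480.3, 513.0 and 546.7 CPM in 0.1X MMR. The sums overlapped, and replicate 3 of 0.1X MMR was the highest. A member had between 1 and 296 counts in a sample and none of the 336 values was at 0, while 3 counts, taken as the smallest signal above counting error, stood at 0.428 to 0.604 CPM depending on the sample. Markers of 10 embryonic tissues were checked against the whole-embryo label, and 48 of their 54 genes passed the filter on low counts (CPM over 0.6 in at least 3 samples), with at least 1 in every tissue. A total of 55 members passed this filter, and hoxd1.S, a paralog group 1 gene, did not, with 5.85, 6.79 and 3.00 counts in 0.75X MMR, against 2.16, 3.31 and 2.00 counts in 0.1X MMR.

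Members of all 13 paralog groups were detected. Levels of different genes were compared per kb of annotated gene span. Spans include introns, so the level of a gene with long introns is understated, and transcript lengths were not used here. Per kb of span the highest members were hoxa2.L at 5.35, hoxc5.L at 5.23 and hoxa2.S at 4.90 CPM per kb, averaged over the 6 samples, and hoxb1.L was the lowest at 0.16 CPM per kb. Without division by length the order was led by hoxa3.L at 43.6 CPM, hoxa3.S at 39.6 CPM and hoxc6.L at 30.5 CPM. The annotated span of hoxa3.L was 42003 bases and overlapped that of hoxa5.L. Likewise hoxa3.S overlapped hoxa5.S and hoxa7.S, and hoxd3.L overlapped hoxd4.L. Among the further Hox-annotated genes, Hox-C4 spans covered hoxc5.L, hoxc6.L, hoxc9.L, hoxc6.S, hoxc8.S and hoxc9.S. Hox-B3a spans covered hoxb4.S and both copies of hoxb5 and hoxb6, Hox-A4 and Hox-A6 overlapped hoxa3, and Hox-D4 overlapped hoxd3.S. Reads in an overlap may be counted for either gene, so these levels are less certain. The L and S sums of hoxa3 and hoxd3 were whole in all 6 samples, so no read split between them and overlapping genes was seen. Whether the counting used the strand of the reads is not given in the sources used here.

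**Figure D1:**
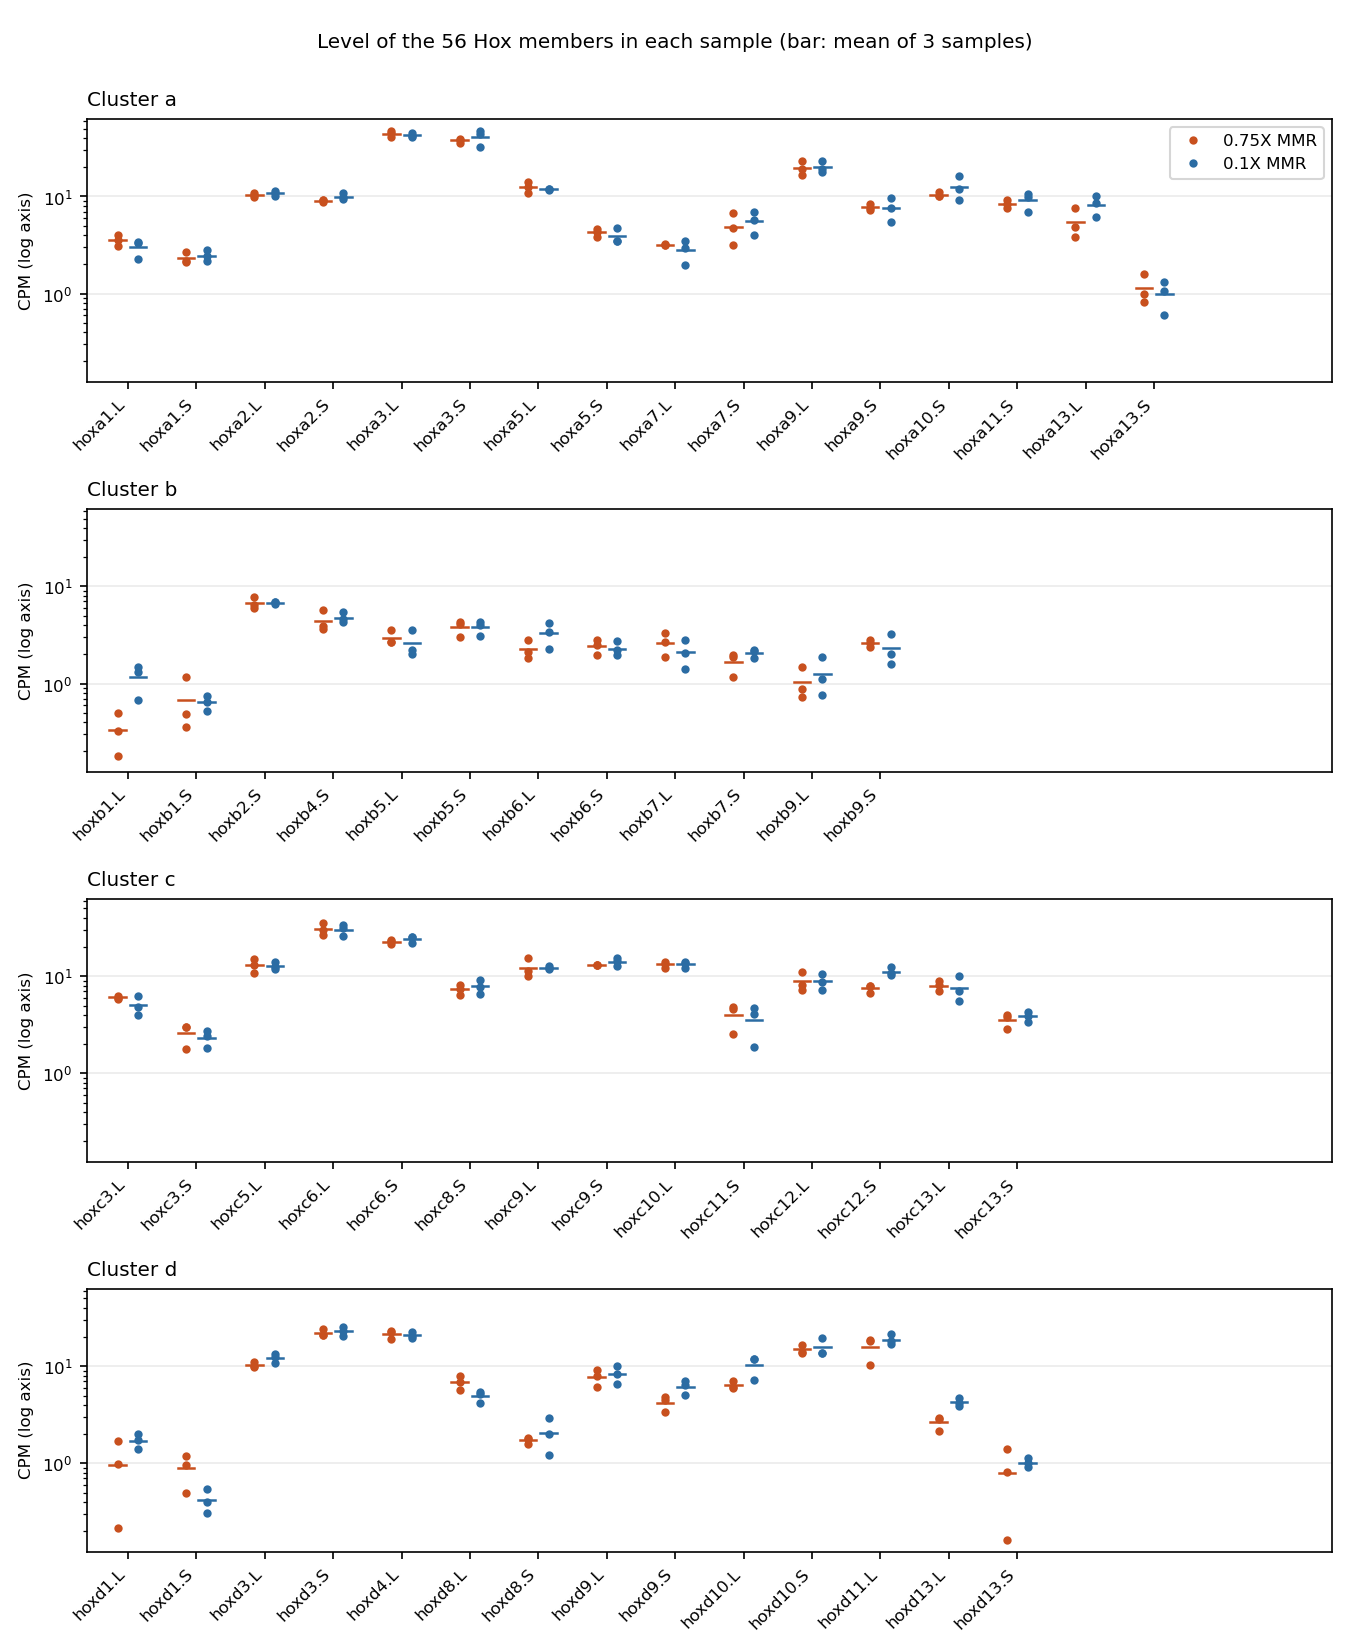
Level of each Hox member in CPM on a log axis, with 1 point per sample and a bar at the mean of 3 samples, 0.75X MMR left of 0.1X MMR, in 1 panel per cluster. The points of the media interleave for most members, levels run from below 1 CPM for hoxb1.L and hoxd1.S to above 40 CPM for hoxa3.L, and cluster b lies lowest.

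The gene hoxa2, which in vertebrates specifies the second branchial arch and parts of the hindbrain, was the highest per kb, among pairs that share a symbol, in paralog groups 1 to 3. Its L copy stood at 10.98, 10.31 and 9.92 CPM in 0.75X MMR, against 10.77, 11.46 and 10.20 CPM in 0.1X MMR. The S copy stood at 8.73, 9.21 and 9.22 CPM in 0.75X MMR, against 9.36, 9.86 and 10.73 CPM in 0.1X MMR. The L values of the media overlapped while the S values lay just apart. In paralog groups 4 to 8 the Hox-A4 homeologs, which bear other symbols, stood above every member per kb. The Hox-C5 copies stood at 5.23 (hoxc5.L) and 3.11 CPM per kb (LOC108709893, under another symbol). Among the pairs of these groups that share a symbol the hoxc6 pair, a thoracic-level gene, was the highest. It had 3.56 CPM per kb in L and 3.42 in S. Its L copy had 26.57, 30.03 and 35.31 CPM in 0.75X MMR, against 26.14, 33.74 and 31.19 CPM in 0.1X MMR, and its S copy 21.79, 23.03 and 23.43 CPM in 0.75X MMR, against 21.97, 25.65 and 25.17 CPM in 0.1X MMR. Both copies overlapped between media. Among such pairs of paralog groups 9 to 13 the hoxa9 pair was the highest, with 19.05, 16.64 and 22.99 CPM of the L copy in 0.75X MMR, against 19.36, 17.73 and 23.35 CPM in 0.1X MMR. The S copy of hoxa9 had 7.29, 8.38 and 7.61 CPM in 0.75X MMR, against 5.49, 7.65 and 9.66 CPM in 0.1X MMR. Replicate 3 was the highest sample of the L copy in both media, and the media overlapped in both copies. The hoxc12 pair came close, with 3.15 and 3.02 CPM per kb for L and S, beside 3.18 and 3.00 for hoxa9.

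Other clusters were led by other members. In the L copy of cluster b hoxb5.L, a gene of the hindbrain to spinal cord boundary, was the highest member per kb, with 2.65, 2.66 and 3.53 CPM in 0.75X MMR, against 2.01, 3.58 and 2.21 CPM in 0.1X MMR. In the S copy of cluster b it was hoxb4.S, with 3.64, 3.90 and 5.73 CPM in 0.75X MMR, against 4.28, 5.39 and 4.63 CPM in 0.1X MMR. Neither gene separated the media. The Hox-B8 gene of chromosome 9_10L, LOC108700806 under another symbol, stood above hoxb5.L, at 1.09 beside 0.88 CPM per kb. The leading member of cluster c on chromosome 2L was hoxc5.L, with 13.20, 10.88 and 15.01 CPM in 0.75X MMR, against 11.94, 12.57 and 14.15 CPM in 0.1X MMR. On 2S it was hoxc6.S, described above. Cluster d was led by posterior members, hoxd11.L and hoxd10.S, whose mouse orthologs act in limb and lower spine. The hoxd11.L level was 18.74, 18.26 and 10.38 CPM in 0.75X MMR, against 18.02, 17.001 and 21.37 CPM in 0.1X MMR, and that of hoxd10.S was 16.72, 13.77 and 14.18 CPM in 0.75X MMR, against 13.75, 13.57 and 19.61 CPM in 0.1X MMR. Replicate 3 of 0.75X MMR stood lowest for hoxd11.L, and replicate 3 of 0.1X MMR stood highest for both genes. The Hox-D11 gene of chromosome 9_10S, LOC108703010 under another symbol, stood above hoxd10.S, at 2.43 beside 1.91 CPM per kb.

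Summed per kb over the 6 samples, cluster a held 37.4% of the Hox level with 16 members and cluster c 34.1% with 14 members. Cluster d held 18.2% with 14 members and cluster b 10.3% with 12 members. Such shares are sums and depend also on the number of members. Cluster b was the lowest also without division by length, at 6.46%, and when the 17 further Hox-annotated genes were included, at 9.58% per kb. It held 4.06% of the level of the L copies and 17.4% of that of the S copies, in which cluster d was lower at 12.03%. The L copies of cluster b were the 5 genes hoxb1.L, hoxb5.L, hoxb6.L, hoxb7.L and hoxb9.L, and the S copies were 7, with hoxb2.S and hoxb4.S in addition. Left out of the L share were Hox-B3a, Hox-B8 and LOC494794 of chromosome 9_10L, which bear other symbols. The S share left out Hox-B3a of chromosome 9_10S. The shares of L and S copies thus depend also on which copies bear a matching symbol.

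Paralog groups 9 to 13, the posterior genes, had the most members, 23, and held the largest share, 45.4% per kb. Groups 4 to 8 held 33.9% over 18 members and groups 1 to 3 held 20.7% over 15 members. The order of the last 2 depended on the scale, since by CPM without division the shares were 38.0%, 29.7% and 32.2% in the same order. It depended also on which genes were counted. With the 17 further genes, 5 of which belong to paralog group 4, groups 4 to 8 held 42.2% per kb and groups 9 to 13 held 41.2%. Among single paralog groups of the members, group 9 had the highest sum, 15.6 ± 0.75 CPM per kb in 0.75X MMR, against 16.7 ± 1.91 CPM per kb in 0.1X MMR (SD, n = 3 each), followed by group 5 and group 2. Groups 1, 3, 4, 7 and 8 each summed to below 4.5 CPM per kb in the mean of each medium. In paralog group 4 the sum was 3.36 ± 0.70 CPM per kb in 0.75X MMR, against 3.53 ± 0.26 CPM per kb in 0.1X MMR over the 2 members, and 17.02 ± 0.60 and 16.7 ± 0.78 CPM per kb, in the same order of media, over all 7 genes annotated to the group.

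**Figure D2:**
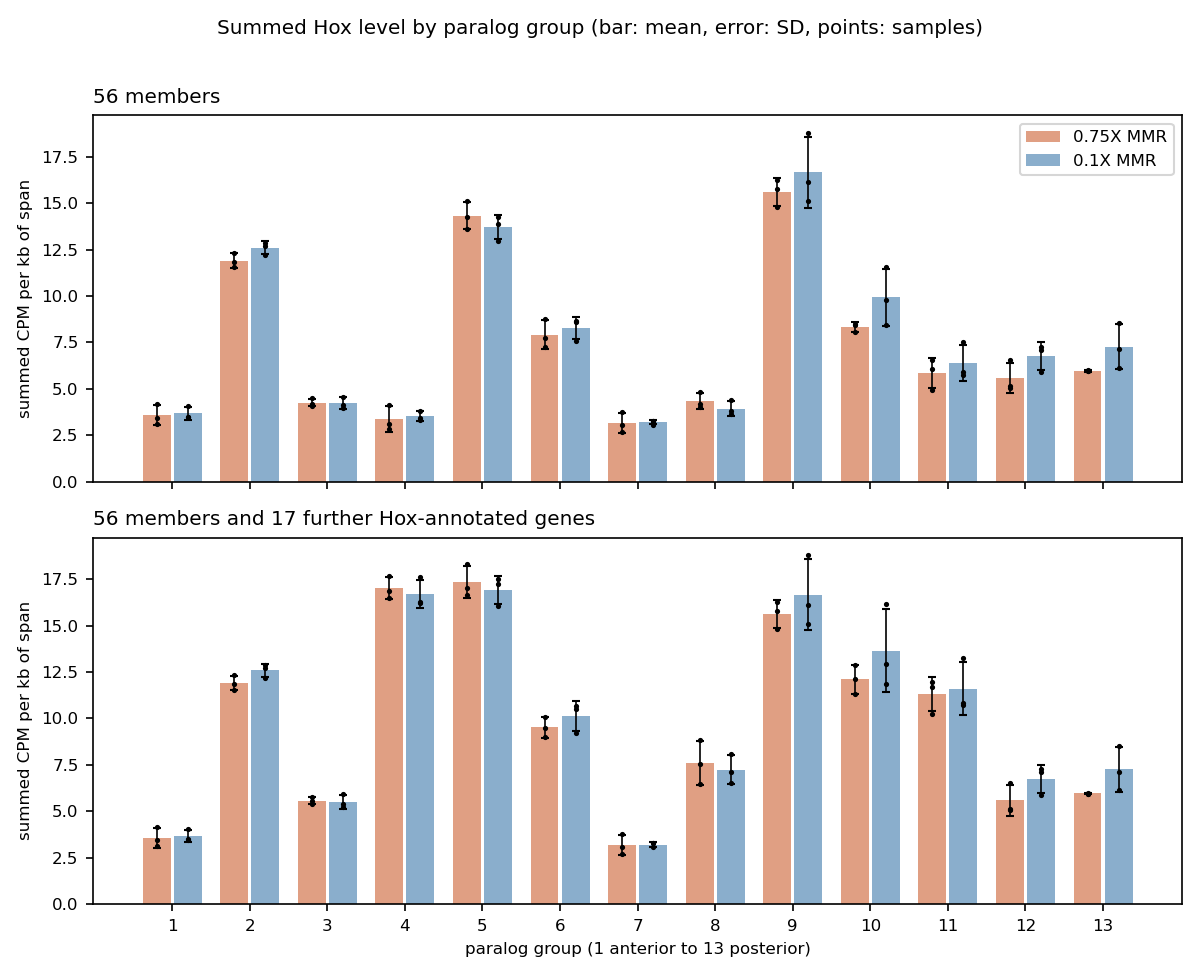
Summed level of each paralog group in CPM per kb of gene span, with bars at the mean, error bars of 1 SD and points for the 3 samples, 0.75X MMR left of 0.1X MMR, for the 56 members (top) and with the 17 further Hox-annotated genes (bottom). Groups 2, 5 and 9 stand highest among the members, group 4 joins them once the further genes are counted, and group 13 is the only group whose media do not overlap.

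The medium was compared gene by gene with edgeR's quasi-likelihood test over all 28075 tested genes, with log2 fold changes of 0.75X MMR over 0.1X MMR. None of the 55 tested Hox members passed an FDR of 0.05, where 0.0178% of all tested genes did, and the lowest adjusted p of a member by edgeR was 0.906, for hoxc12.S. DESeq2 and limma-voom, with and without 2 surrogate variables, also called 0 members. At an unadjusted p under 0.05 edgeR gave 7 members, where 4.39% of all genes reached this limit. Of the 7 members 6 were lower in 0.75X MMR, where 2.25% of all genes were, and 1 was higher, where 2.14% of all genes were. DESeq2 gave 2 members at this limit, both lower, where it placed 0.794% of all genes lower. Without and with 2 surrogate variables limma-voom gave 6 members, all lower, where it placed 2.32% and 2.62% of all genes lower. With single samples left out, edgeR gave 4 members, all lower, without replicate 2 of 0.75X MMR and 4, all lower, without replicate 3 of 0.1X MMR, where 2.68% and 1.96% of all genes were lower. Between the media 6 members did not overlap with the lower values in 0.75X MMR, against 1 with the higher values, where 4.97% and 4.77% of all genes did so.

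Most members had small differences with errors of the same size. The median log2 fold change of the tested members was −0.05, with a median SE of 0.22, and that of all genes was −0.00. A total of 32 of 55 members had an estimate below 0, where 50.4% of all genes did. The 95% interval of limma-voom lay within ±1 on the log2 scale for 41 of 55 members, so a change of more than 2-fold was outside it, and for 80.6% of all tested genes and 77.8% of those with counts in the range of the members. For the other 14 members the interval reached beyond a 2-fold change in at least 1 direction. The median depended on replicate 3 of 0.1X MMR, without which it was 0.00 and 26 of 55 members were below 0.

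The members were then described by blocks of paralog groups. In groups 9 to 13, 16 of 23 tested members were below 0 with a median log2 fold change of −0.08, and 5 were lower at an unadjusted p under 0.05, where 2.25% of all genes were. In groups 4 to 8, 8 of 18 were below 0 with a median of 0.02 and 1 was higher at that limit. In groups 1 to 3, 8 of 14 were below 0 with a median of −0.06 and 1 was lower at that limit. The posterior count was 3 of 23 by edgeR without replicate 1 or replicate 3 of 0.1X MMR or replicate 1 of 0.75X MMR. In the same order 2.04%, 1.96% and 2.12% of all genes were lower. By DESeq2 over all samples it was 2 of 23, where 0.794% of all genes were lower. The posterior median was −0.02 without replicate 3 of either medium and −0.18 without replicate 2 of 0.75X MMR. Replicate 3 of 0.1X MMR had the highest summed level of groups 9 to 13, 230.35 CPM, whereas the others had 177.8, 184.2 and 176.4 CPM in 0.75X MMR, against 183.5 and 190.5 CPM in 0.1X MMR. By cluster, 11 of 13 tested members of cluster d were below 0 with a median of −0.26, where 50.4% of all genes were below 0. The medians of clusters a, b and c were −0.04, −0.00 and 0.01. The further cluster d genes, Hox-D4 and Hox-D11 of chromosome 9_10S, had changes of −0.00 and 0.15. The summed CPM of the cluster d members did not overlap between media. It overlapped per kb and when the further genes were added. A difference between blocks or clusters was not tested, and members of a cluster share the same samples.

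**Figure D3:**
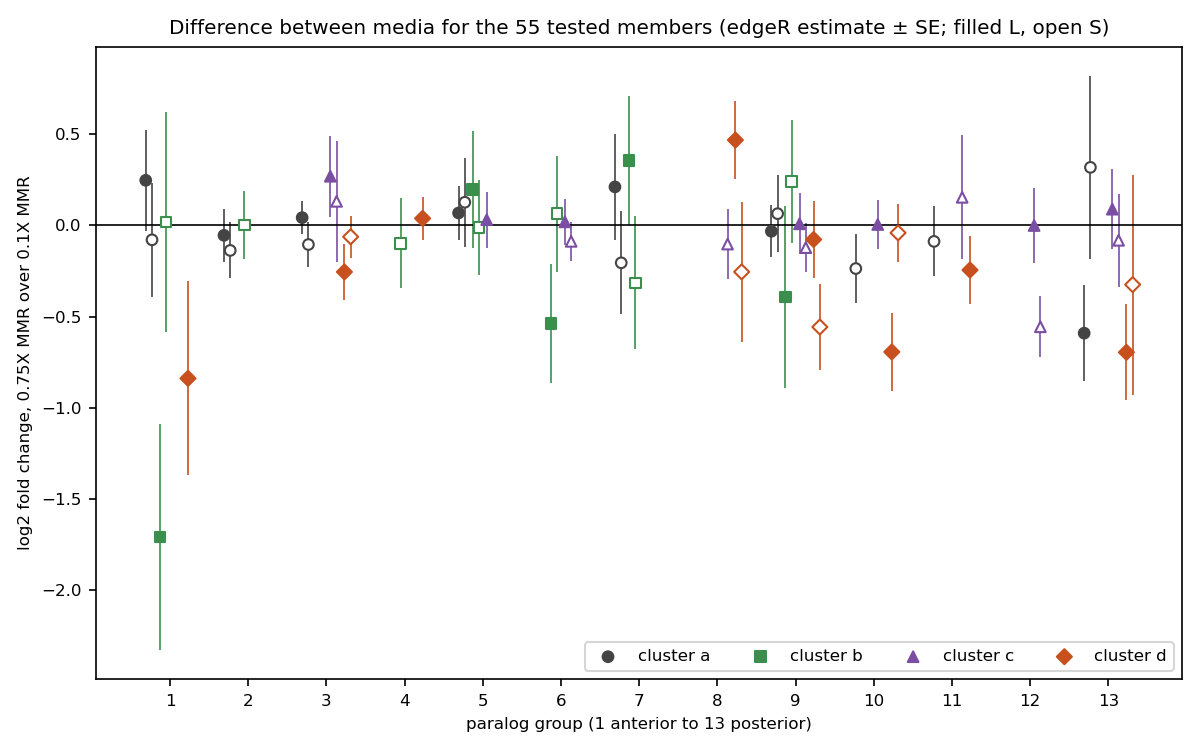
Log2 fold change of 0.75X MMR over 0.1X MMR from edgeR, with an SE derived from its F statistic, for the 55 tested members by paralog group. Marker shapes stand for clusters a to d, filled for L and open for S copies. Estimates scatter around 0, the lowest is hoxb1.L at −1.71, and 7 members had an unadjusted p under 0.05 while none passed the FDR of 0.05.

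The member with the smallest p was hoxc12.S, a posterior gene of the tail region. Its level was 6.70, 7.99 and 7.95 CPM in 0.75X MMR, against 10.30, 10.82 and 12.41 CPM in 0.1X MMR. Each value in 0.75X MMR was under the lowest value in 0.1X MMR. The log2 fold change was −0.56 ± 0.17 (SE), with an unadjusted p of 0.00497 and an adjusted p of 0.906 by edgeR. Its partner hoxc12.L had an estimate of −0.00 ± 0.21 (SE).

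For hoxd10.L the values were 5.96, 6.99 and 6.11 CPM in 0.75X MMR, against 7.24, 11.81 and 11.80 CPM in 0.1X MMR. The media did not overlap, but replicate 1 of 0.1X MMR came close to the samples in 0.75X MMR. The log2 fold change was −0.69 ± 0.21 (SE), with an unadjusted p of 0.00578 and an adjusted p of 0.913 by edgeR. Without replicate 1 of 0.1X MMR the change was −0.91 and the adjusted p by edgeR was 0.440, the lowest among the exclusions of 1 sample.

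The paralog group 1 gene hoxb1.L, whose orthologs mark the hindbrain's rhombomere 4, was near the limit of detection. It had 3.00, 1.00 and 2.00 counts in 0.75X MMR, against 9.31, 9.00 and 3.34 counts in 0.1X MMR. The ratio of the summed levels was 0.278, with an exact 95% interval of 0.0922 to 0.707 that covers counting error only. The samples in 0.75X MMR were all at or below the floor of 3 counts, and the unadjusted p by edgeR was 0.0157.

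The paralog group 13 gene hoxd13.L, which marks the posterior end of the axis, had 2.16, 2.84 and 2.95 CPM in 0.75X MMR, against 4.66, 3.90 and 4.23 CPM in 0.1X MMR. The media did not overlap. The log2 fold change was −0.70 with an unadjusted p of 0.0191 by edgeR. A second gene of paralog group 13 at this limit, hoxa13.L, had 4.87, 3.81 and 7.69 CPM in 0.75X MMR, against 8.53, 6.18 and 10.02 CPM in 0.1X MMR. Its samples overlapped between the media, and the log2 fold change was −0.59 with an unadjusted p of 0.0404. In each medium replicate 3 had the highest and replicate 2 the lowest value of hoxa13.L. Without replicate 3 of 0.75X MMR its change was −0.94 and without replicate 2 of 0.75X MMR it was −0.39, with unadjusted p of 0.00341 and 0.160 by edgeR. The remaining members of the group had estimates of 0.32 for hoxa13.S, 0.09 for hoxc13.L, −0.08 for hoxc13.S and −0.33 for hoxd13.S.

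The remaining lower member was hoxd9.S, a gene of the lumbar level in mouse, with 4.47, 4.81 and 3.34 CPM in 0.75X MMR, against 6.45, 5.01 and 7.06 CPM in 0.1X MMR. The media were apart by the small gap between replicate 2 of each. The log2 fold change was −0.56 with an unadjusted p of 0.0317. The sum over all 6 members of paralog group 13, per kb, was 5.93, 5.9998 and 5.94 in 0.75X MMR, against 7.13, 6.13 and 8.53 in 0.1X MMR. The media did not overlap in this sum, whereas they did when the members were added up as CPM without division by length.

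Higher in 0.75X MMR at an unadjusted p under 0.05 was only hoxd8.L, a mid-trunk gene. It had 6.96, 7.99 and 5.73 CPM in 0.75X MMR, against 5.42, 4.23 and 5.23 CPM in 0.1X MMR. The media did not overlap, and the log2 fold change was 0.47 with an unadjusted p of 0.0451. The next members in this direction were hoxc3.L and hoxb7.L, whose values overlapped. The hoxc3.L level was 6.29, 6.03 and 5.89 CPM in 0.75X MMR, against 3.998, 6.35 and 4.83 CPM in 0.1X MMR, and that of hoxb7.L was 3.31, 2.66 and 1.89 CPM in 0.75X MMR, against 1.41, 2.04 and 2.82 CPM in 0.1X MMR. None of these 3 members passed the FDR of 0.05. The difference of hoxd11.L, −0.25 over all samples, was −0.01 without replicate 3 of 0.75X MMR.

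Since copies shared reads, the L and S counts of each pair were added up and the test was run again. This step was chosen after seeing the data. Of the 23 sums 15 were below 0 and none passed an FDR of 0.05, where 0.00941% of all summed features did. At an unadjusted p under 0.05 there was 1 pair, hoxd13, where 4.26% of all features were. Its summed level was 2.98, 4.26 and 3.11 CPM in 0.75X MMR, against 5.57, 5.04 and 5.23 CPM in 0.1X MMR. The sums did not overlap, with a log2 fold change of −0.62 ± 0.24 (SE) and an unadjusted p of 0.0220. The hoxc12 pair summed to 14.90, 19.17 and 15.22 CPM in 0.75X MMR, against 17.56, 21.48 and 21.14 CPM in 0.1X MMR, which overlapped, with a change of −0.28 ± 0.14 (SE). The hoxd10 pair summed to 22.69, 20.76 and 20.29 CPM in 0.75X MMR, against 20.99, 25.38 and 31.40 CPM in 0.1X MMR, which overlapped, with a change of −0.27 ± 0.14 (SE). For both pairs the estimate of the sum was closer to 0 than that of the single copy. The sums of hoxb1, hoxa13 and hoxd9 had changes of −0.83, −0.47 and −0.27, with all 3 overlapping between media. The hoxd8 sum was higher in 0.75X MMR without overlap, by 0.29, with an unadjusted p of 0.125.

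**Figure D4:**
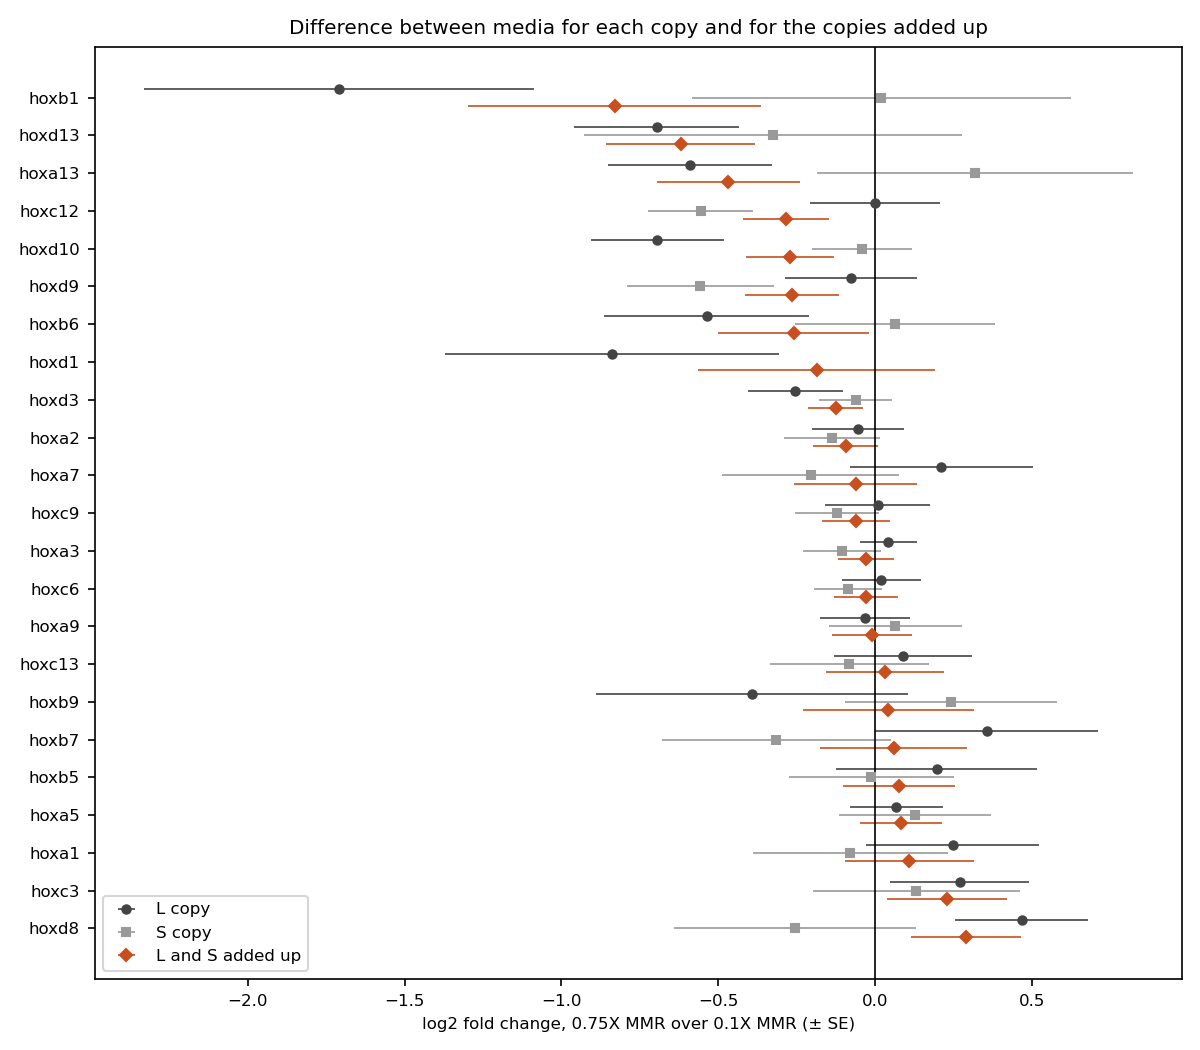
Log2 fold change of 0.75X MMR over 0.1X MMR from edgeR, with an SE derived from its F statistic, for the 23 Hox pairs sorted by the sum. Shown are the L copy, the S copy and the copies added up. The sums run from −0.83 for hoxb1 to 0.29 for hoxd8, and 1 of them, hoxd13, had an unadjusted p under 0.05.

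The 17 further Hox-annotated genes gave no call either. None passed the FDR of 0.05 or an unadjusted p of 0.05 by edgeR, and their median log2 fold change was −0.00. The highest of them by CPM, LOC108702517 (Hox-B3a, chromosome 9_10S), had 57.98, 56.70 and 57.92 CPM in 0.75X MMR, against 56.37, 57.04 and 56.23 CPM in 0.1X MMR. Its values overlapped and spread little. Per kb of span the highest were the Hox-A4 genes LOC108718897 at 6.29 and LOC108719683 at 5.59 CPM per kb, above every member. The Hox-D11 gene of chromosome 9_10S, LOC108703010, did not overlap between media. It was higher in 0.75X MMR by 0.15 on the log2 scale, with an unadjusted p of 0.368 by edgeR.

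The L and S copies were compared as the log2 ratio of L over S in each sample, averaged over both media, with limma over 6904 homeolog pairs. Of the 22 Hox pairs in which both copies passed the filter, 10 differed per kb at an FDR of 0.05 and 6 of these had the higher level in L, where 84.9% of all pairs differed and 53.7% had L higher at this FDR. By CPM without division 14 differed and 10 of these had the higher level in L, where 84.2% of all pairs differed and 54.3% had L higher. On both scales and in the same direction 6 pairs differed, hoxa3, hoxa13, hoxc13, hoxd8 and hoxd13 with L higher and hoxb9 with S higher, where 73.1% of all pairs did. The hoxd10 pair changed direction with the scale, as its S copy spans 8014 bases and its L copy 3368 bases. The median log2 ratio over the Hox pairs was 0.12 per kb and 0.24 by CPM, beside 0.31 on each scale over all pairs. Tested Hox members had lower levels than all tested genes, with medians of 6.75 and 12.1 CPM. The prior count of 2 draws CPM ratios of low counts towards 0, and copies share reads. The shares over all pairs are not matched for counts, so a more even balance of Hox copies was not tested.

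The ratio furthest towards L per kb was that of hoxa13, whose S copy had 1.59, 0.98 and 0.82 CPM in 0.75X MMR, against 0.60, 1.30 and 1.05 CPM in 0.1X MMR, below every value of the L copy given above. Its log2 ratio was 1.84 ± 0.22 (SE) per kb and 2.33 ± 0.22 (SE) by CPM. The hoxd8 pair had a log2 ratio of 1.82 ± 0.20 (SE) per kb, with 1.82, 1.60 and 1.80 CPM of hoxd8.S in 0.75X MMR, against 2.00, 2.93 and 1.21 CPM in 0.1X MMR. The third was hoxd13 at 0.88 ± 0.25 (SE) per kb, with 0.82, 1.42 and 0.16 CPM of hoxd13.S in 0.75X MMR, against 0.91, 1.14 and 1.01 CPM in 0.1X MMR. In every sample the L copy of these 3 pairs had more than 50% of the counts of the pair, with the lowest share being 59.1% for hoxd8.

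Towards S the ratio was furthest for hoxb9, a trunk and tail gene of cluster b. Its L copy had 0.87, 1.48 and 0.73 CPM in 0.75X MMR, against 1.12, 1.87 and 0.76 CPM in 0.1X MMR, and its S copy had 2.61, 2.78 and 2.38 CPM in 0.75X MMR, against 1.59, 2.04 and 3.27 CPM in 0.1X MMR. In each sample the S copy was the higher one, and the log2 ratio was −1.59 ± 0.24 (SE) per kb and −0.99 ± 0.24 (SE) by CPM. The hoxb5 pair followed at −0.69 ± 0.20 (SE) per kb, with 4.14, 4.26 and 3.02 CPM of hoxb5.S in 0.75X MMR, against 4.27, 3.09 and 4.03 CPM in 0.1X MMR. The hoxb1 pair stood at −0.66 ± 0.30 (SE) per kb, with 1.16, 0.35 and 0.49 CPM of hoxb1.S in 0.75X MMR, against 0.53, 0.65 and 0.74 CPM in 0.1X MMR. The L copy of hoxb1 held 30.0%, 33.3% and 40.0% of the counts of the pair in 0.75X MMR, where it was at or below the floor of 3 counts, against 71.6%, 69.2% and 47.7% in 0.1X MMR. The media did not overlap in this share. The differences of hoxb5 and hoxb1 did not pass the FDR of 0.05 by CPM.

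**Figure D5:**
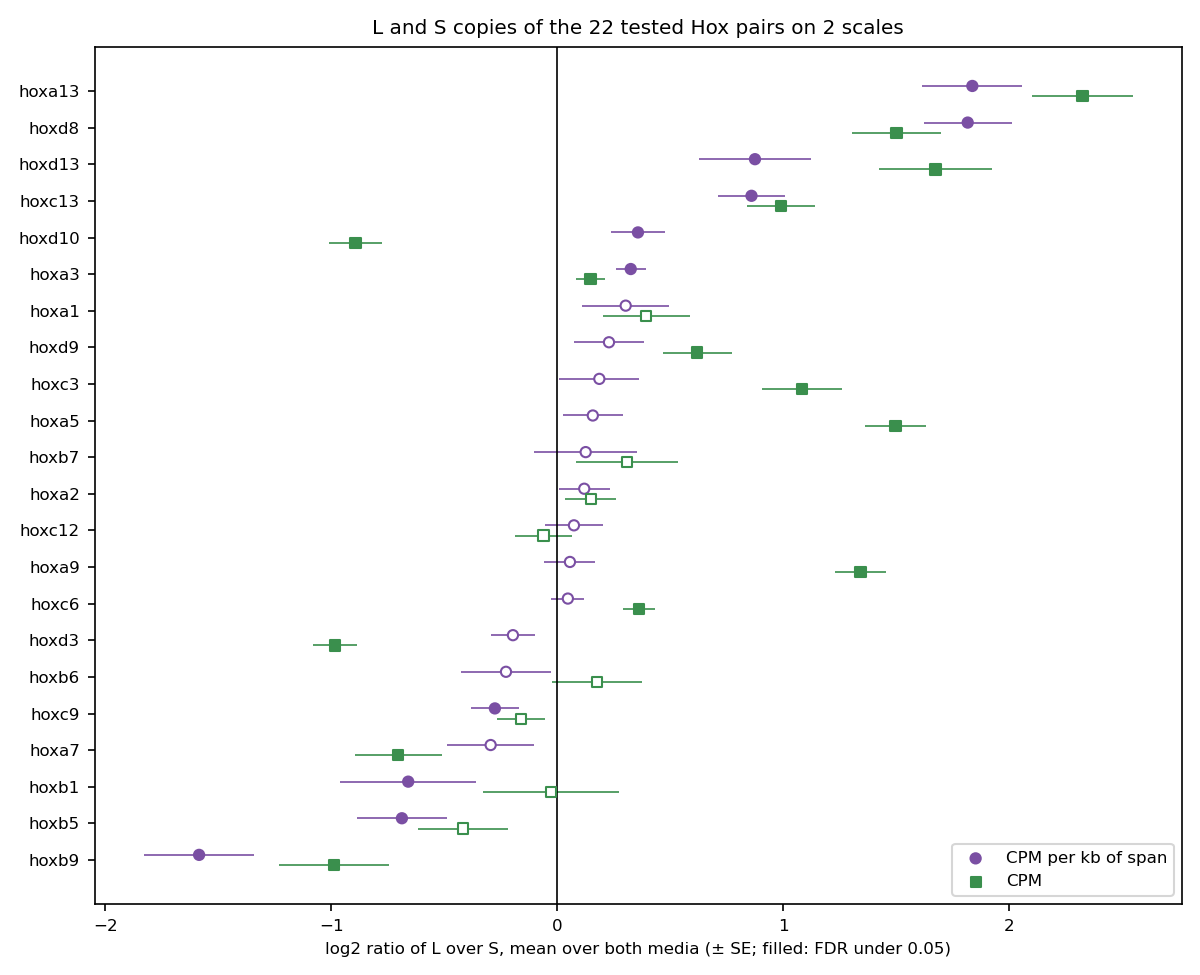
Log2 ratio of the L over the S copy, averaged over both media, with its SE from limma for the 22 tested Hox pairs, per kb of gene span (circles) and by CPM (squares), filled where the FDR was under 0.05. The pairs run from −1.59 for hoxb9 to 1.84 for hoxa13 per kb. The scales differ in direction for hoxd10, which passed the FDR on both, and for hoxb6 and hoxc12, which passed it on neither.

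The balance of the copies was compared between the media in the same fit. None of the 22 pairs passed an FDR of 0.05 by limma, where 0.0145% of all pairs did, and 2 pairs had an unadjusted p under 0.05, where 5.27% of all pairs did. The L copy of hoxd10 held 26.3%, 33.7% and 30.1% of the pair's counts in 0.75X MMR, against 34.5%, 46.5% and 37.6% in 0.1X MMR, which did not overlap. Its log2 ratio differed by −0.61 (95% interval −1.09 to −0.13, unadjusted p of 0.0154 by limma). The L copy of hoxc12 held 55.1%, 58.3% and 47.8% of the counts in 0.75X MMR, against 41.3%, 49.6% and 41.3% in 0.1X MMR, which overlapped, and the ratio differed by 0.54 (95% interval 0.02 to 1.06, unadjusted p of 0.0435 by limma). The directions were opposite in these pairs. The 95% interval of the difference in ratio lay within ±1 for 9 of 22 pairs, and for the other 13 it reached beyond a 2-fold shift in the balance in at least 1 direction.

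Genes that act with or on the Hox clusters gave 0 calls at the FDR of 0.05 by edgeR. All 13 genes of the cofactor list (Pbx, Meis and Pknox genes, whose proteins bind DNA with Hox proteins) were tested, with a median log2 fold change of −0.00 and none at an unadjusted p under 0.05. Of the 37 upstream genes, which include Cdx, retinoic acid, Fgf and Wnt pathway genes that set Hox domains, 30 were tested with a median of 0.01 and 1 at that limit in each direction. These were tbxt.S, the T-box gene brachyury of the tailbud and notochord, and cyp26b1.S, which encodes an enzyme that degrades retinoic acid. The tbxt.S level was 0.83, 0.71 and 1.64 CPM in 0.75X MMR, against 2.43, 1.95 and 2.01 CPM in 0.1X MMR, without overlap, and the log2 fold change was −0.99 with an unadjusted p of 0.0323 by edgeR.

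The lists of chromatin regulators were as close to 0. Of 39 Polycomb genes, which keep Hox genes silent outside their domains, 37 were tested with a median of −0.04, and 1, phc1.S, was higher in 0.75X MMR at an unadjusted p of 0.0402 by edgeR with a log2 fold change of 0.25. Of the 18 Trithorax and H3K27 demethylase genes, which act against Polycomb, 18 were tested with a median of 0.01 and none at that limit. The 25 tested head homeobox genes, which lie outside the Hox clusters and act in front of their domains, had a median of 0.10 and none at that limit.

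Markers of the tissues that hold posterior Hox RNA were set beside the posterior members. Of the 6 tailbud genes 3 passed the filter, with tbxt.S lower as given above and both wnt3a copies above 0, and their summed level was 12.1 to 18.2 CPM in 0.75X MMR, against 11.99 to 15.5 CPM in 0.1X MMR. The tailbud gene msgn1.S, under the filter, had 0.33, 0.18 and 0.65 CPM in 0.75X MMR and was at 0 in all 3 samples in 0.1X MMR. The 6 spinal motor neuron genes were all tested, 5 of them with an estimate below 0 (median −0.09) and none at an unadjusted p under 0.05, with summed levels of 35.7 to 42.4 CPM in 0.75X MMR, against 34.3 to 46.1 CPM in 0.1X MMR. Of the 8 somite and muscle genes 7 were tested, 6 of them with an estimate below 0 (median −0.11) and none at that limit, with summed levels of 1449 to 1794 CPM in 0.75X MMR, against 1689 to 1778 CPM in 0.1X MMR. Of all tested genes 50.4% had an estimate below 0. Of the neural markers 3 of 8 tested genes were below 0 (median 0.01), and of the neural crest markers 3 of 6 (median 0.01). Of the lateral plate and heart markers 2 of 5 were below 0 (median 0.00). No gene of these lists had an unadjusted p under 0.05 by edgeR. The part of tissue proportions in the differences of Hox members was not tested.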

How the data were processed

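RNA was sequenced from 3 pools of 10 whole embryos per medium, with single-end reads of 75 nucleotides. Per the study, fastp was used for trimming, STAR for alignment to genome version 10.1 and RSEM for quantification. The expected counts that the authors deposited carry no normalization. A deposited table of log2 CPM, which the authors adjusted for surrogate variables, holds 49 of the 56 members. Its product names served to find the further Hox-annotated genes, except xhoxc8, which was added by its symbol. Its values entered no test, and the surrogate variables of the alternative were estimated from the counts. All columns matched a sample label, and groups follow the labels. The study describes its replicates in general as independent samples from independent batches, and the labels do not say which numbered pools share parents or a batch.

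Expected counts were rounded before testing. The filter asked for CPM over 0.6 in 3 or more samples and passed 28075 of 42638 genes, which were tested with edgeR 4.0.16 (TMM, quasi-likelihood test, two-sided, medium as the only term) and Benjamini-Hochberg adjustment over all tested genes. DESeq2 1.42.0 and limma-voom (limma 3.58.1, also with sva 3.50.0) were alternatives, as were other size factors, filters, a replicate block, added copies and exclusion of each sample. Intervals of 95% came from limma-voom for single genes and from the limma fit of the ratio for L and S pairs. That of the hoxb1.L ratio was an exact interval from counts. The edgeR test gives no SE. The SE of its log2 fold change is the absolute change divided by the square root of the F statistic of the test. The ratio of L to S was fitted with limma on log2 CPM per kb with a prior count of 2. Transcript lengths were not at hand, so annotated RefSeq gene spans (same genome version) stand in for length, introns included, and CPM without division was the alternative. R 4.3.3 was used, and the functions were tested on simulated data. The total of 5024957 to 7045215 counts per sample limits the precision.

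The members and lists were chosen with earlier results of these data known. Per-sample values are given for the 3 members with the lowest p in each direction, the highest member per kb of each cluster copy, the highest pair of each block of paralog groups, the 3 pairs with the most extreme ratio on each side and members under the filter. Other Hox genes with an unadjusted p under 0.05, hoxc12.L, LOC108702517, LOC108703010, cyp26b1.S and msgn1.S were named after their values were seen. No sequences are shown.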

Additional observations from a re-analysis of the deposited data

How the results depend on the processing

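No alternative gave a Hox member past the FDR of 0.05. At an unadjusted p under 0.05 the count of members was 7 by edgeR and between 2 (DESeq2) and 7 under the other settings with single copies, and 4 to 6 without 1 sample. At most 1 of these members was higher in 0.75X MMR. Of all genes, edgeR placed 2.25% lower at this limit. The other settings placed 0.794% (DESeq2) to 2.62% (limma-voom with 2 surrogate variables) lower, and the exclusions of 1 sample 1.96% to 2.68%. Over all genes, calls past the FDR numbered 5 by edgeR, 14 by DESeq2 and 34 with no filter on low counts. The median log2 fold change of the members ranged from −0.10 to 0.00 when each sample was left out.

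The labels do not say whether a sample number pairs samples across the media. Deviations of same-numbered samples correlated at −0.024, −0.032 and −0.103 over 28075 genes, and those of differently numbered samples at −0.041 to 0.072. With 3 samples per medium these values cannot tell whether samples of the same number share a batch. With a replicate block 0 members passed the FDR of 0.05, and 2 genes in all did. At an unadjusted p under 0.05 there were 5 members, all lower, where 1.82% of all genes were lower. The log2 fold change with this block was −0.0089 for hoxb1.S and 0.0032 for hoxc12.L.

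Of the recomputed changes of 28 named members, 28 changed sign and 359 did not. By limma-voom hoxb1.S was at −0.11, and with 2 surrogate variables hoxd10.S was at 0.061 and hoxa9.L at 0.057. The estimate of hoxc12.L, which lay at 0, was 0.00029 by DESeq2 and 0.00033 with RLE size factors. Leaving out each sample in turn gave ranges of −0.085 to 0.145 for hoxc5.L, −0.10 to 0.11 for hoxc6.L, −0.14 to 0.26 for hoxa9.S, −0.163 to 0.074 for hoxa9.L, −0.14 to 0.14 for hoxb5.S, −0.62 to 0.30 for hoxb1.S, −0.484 to 0.075 for hoxd8.S, −0.13 to 0.14 for hoxd10.S, −0.332 to 0.026 for hoxb4.S, −0.0087 to 0.625 for hoxa13.S, −0.98 to 0.16 for hoxd13.S and −0.19 to 0.16 for hoxc12.L. The cause was not tested.

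The median log2 ratio of L to S was 0.24 by CPM. The median per kb, 0.12 over all samples, ranged from 0.087 to 0.138 without 1 sample. The count of 10 differing pairs was 6 with at least 10 counts of each copy (18 pairs tested), 5 among pairs with spans of similar length (10 pairs tested, chosen after seeing the data) and 8 to 11 without 1 sample. Shares of the Hox level moved both with the scale and with the genes counted. For cluster a the share was 34.4% in L copies, 40.9% in S copies and 41.6% with the further Hox-annotated genes, an addition made after seeing the data. For cluster b it was 6.46% by CPM, 4.06% in L, 17.4% in S and 9.58% with the further genes, and for cluster c 31.1%, 37.9%, 29.7% and 32.3% in that order. For cluster d it was 24.7% by CPM, 23.6% in L, 12.03% in S and 16.5% with the further genes. Paralog groups 1 to 3 held 32.2%, 18.7%, 23.0% and 16.6% in the same order, groups 4 to 8 held 29.7% by CPM and 42.2% with the further genes, and groups 9 to 13 held 38.0% and 41.2%.

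With 1 to 296 counts per member and sample, weakly expressed members such as hoxb1.L, hoxd1.L and hoxd13.S carry the widest errors.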

Other observations

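Other transcribed units lay between the Hox genes. RefSeq places 9 genes with no Hox annotation inside the 8 clusters, and 8 of them were in the table, among them 5 long non-coding RNAs. Lack of the annotation does not show that a gene is no Hox copy. The protein-coding LOC494794 completed the counts of hoxb4.S, and the protein-coding LOC108702520 lay between hoxb7.S and hoxb9.S. Neither was counted in the Hox sums. The long non-coding RNA LOC108718899 on chromosome 6L had 5.47, 2.48 and 2.95 CPM in 0.75X MMR and 2.57, 4.72 and 3.42 CPM in 0.1X MMR. Its values overlapped between the media. LOC121394578, a long non-coding RNA whose span overlaps hoxa7.L, completed the counts of the hoxa7 pair to whole numbers in all 6 samples, within 0.015, and had 2.50, 1.39 and 2.39 CPM in 0.75X MMR and 2.24, 1.27 and 3.21 CPM in 0.1X MMR. None of the 8 had an unadjusted p under 0.05 by edgeR.

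The even-skipped genes evx1.L and evx1.S, homeobox genes that flank Hox clusters and are expressed in the tailbud, were tested with log2 fold changes of −0.23 and −0.04. The evx1.L level was 5.83, 4.08 and 4.25 CPM in 0.75X MMR and 4.14, 5.69 and 7.05 CPM in 0.1X MMR, which overlapped. Among the blood markers gata1.L, a transcription factor of red cell precursors, had 4.64, 3.73 and 2.78 CPM in 0.75X MMR and 2.28, 2.28 and 1.61 CPM in 0.1X MMR, without overlap, with a log2 fold change of 0.82, an unadjusted p of 0.0189 and an adjusted p of 1.00 by edgeR.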
